A study of Mus musculus with 9 samples.

Results

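Ano3, Clic6, Fbp2 and Gm9973 are 4 mouse genes that stood far lower in kidneys of Trex1-/- mice than in wild-type kidneys. They were selected on their measured fold change in the knockout given PBS against wild type. Apart from Rpl29 they had the largest falls among genes past the test with no overlap between the groups and a mean of at least 1 CPM, the counts of a gene relative to those of its library. They are 4 of 54532 gene identifiers in the files and 4 of 16646 genes with enough reads to be tested. All 4 passed the filter on low counts, which their wild-type level alone could meet.

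The kidneys came from a study of the cGAS-STING pathway in lupus-like disease, which asked what a STING antagonist changes in mice lacking TREX1. PolyA+ RNA was measured by RNA-seq in 9 libraries, 3 from wild-type (WT) mice, 3 from Trex1-/- mice given PBS (hereafter PBS) and 3 from Trex1-/- mice given SN-011, a STING antagonist (hereafter SN-011). All mice were on the C57BL/6J background. The Trex1-/- mice were offspring of heterozygous parents and were about 1 month old when daily intraperitoneal injections of SN-011 or of vehicle, Tween 80 in PBS, began, and these went on for 2 weeks. The WT mice were bought at 4 to 8 weeks of age from another source, and no injection of them is described. Genotype, colony and injection therefore cannot be told apart in any comparison with WT. The knockout is present in all tissues, so cells outside the kidney lack TREX1 as well. The labels do not state that the 3 libraries of a group are 3 animals, and p-values here measure the spread between these libraries.

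TREX1 is an exonuclease that degrades DNA in the cytosol, and without it that DNA activates cGAS, STING and the interferon genes. Ano3 encodes a member of the anoctamin family, membrane proteins that act as calcium-activated chloride channels or lipid scramblases, and ANO3 is best known from neurons, where mutations cause dystonia. Clic6 encodes a member of the chloride intracellular channel (CLIC) family and is known from secretory epithelia such as the choroid plexus. Fbp2 encodes the muscle isoform of fructose-1,6-bisphosphatase, the enzyme that returns fructose-1,6-bisphosphate to fructose-6-phosphate in gluconeogenesis, for which kidney and liver mainly use the product of Fbp1. Gm9973 is annotated as a transcribed unprocessed pseudogene and lies among the Akr1c genes, which encode aldo-keto reductases.

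The libraries held 16118813 to 21928965 counts. Trex1 itself had 0 counts in each of the 9 libraries, WT included, so its reads could not serve as a check of the labels. Reads of Uty, Eif2s3y, Ddx3y and Kdm5d, 4 genes of the Y chromosome, divided the libraries into those with and those without them: WT replicate 3, all 3 PBS libraries and SN-011 replicate 2 had 153 to 188 CPM, and the other 4 libraries had at most 0.377 CPM and 434 to 503 CPM of Xist. The sex of the animals is not given in the labels. No PBS library lacked Y-linked reads, and the values within libraries with and without them are given beside the results. Markers of proximal tubule summed to 11207 to 15111 CPM in the 9 libraries. The 9 markers of skeletal muscle, known for Fbp2, summed to 19.4 to 29.4 CPM in WT, 15.8 to 26.7 in PBS and 10.8 to 21.0 in SN-011, and 7 of them were too low to be tested. Most of that was Pvalb, which the distal tubule also makes, with group means of 14.2 to 18.9 CPM, and Mylpf averaged 1.19, 1.05 and 1.08 CPM. Acta1 and Ckm, the muscle actin and creatine kinase, averaged at most 0.0343 CPM in any group. The muscle myosin Myh1 was also higher in WT, at 4.48, 2.98 and 0.0579 CPM in the WT libraries and 0 in all 6 Trex1-/- libraries, and its part in the level of Fbp2 was not tested. Neurons, known for Ano3, had Snap25 at 0 throughout and 6 markers that summed to 0.435 to 1.51 CPM. Of 5 markers of the choroid plexus, known for Clic6, Otx2 was at 0 throughout, while Ttr, Folr1 and Kl averaged 34.9, 430 and 911 CPM in WT, the last 2 being known from kidney tubules as well. The 5 summed to 1283 to 1431 CPM in WT, 1339 to 1530 in PBS and 1475 to 1720 in SN-011, nearly all of it Folr1 and Kl. Kcne2 averaged 0.359 CPM in WT, 0.203 in PBS and 0.0396 in SN-011, and the part of such cells in the level of Clic6 was not tested.

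Ano3 (ENSMUSG00000074968) lies at chr2:110655201-110950923 on the minus strand of GRCm38, with 7218 exonic bases. In WT replicates 1, 2 and 3 its level was 19.3, 16.3 and 16.7 CPM, with library sizes adjusted by TMM factors (trimmed mean of M-values). The PBS libraries held 3.11, 3.15 and 3.05 CPM, and the SN-011 libraries held 5.67, 6.14 and 9.68 CPM. The 3 groups did not overlap, with every SN-011 library between the highest PBS and the lowest WT library. The means were 17.4 ± 1.63 CPM in WT, 3.10 ± 0.0537 in PBS and 7.16 ± 2.19 in SN-011 (SD, n = 3). Relative to WT, this left 17.8% in PBS and 41.1% in SN-011.

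Fbp2 (ENSMUSG00000021456) lies at chr13:62836877-62858422 on the minus strand, with 1469 exonic bases. The WT libraries held 27.5, 30.4 and 27.1 CPM. The PBS libraries held 5.91, 4.50 and 6.65 CPM, and the SN-011 libraries held 15.8, 4.46 and 14.2 CPM. All Trex1-/- libraries were below all WT libraries, but the SN-011 libraries did not stand together. Replicate 2 was at the PBS level, slightly below the lowest PBS library, while replicates 1 and 3 were near the middle between PBS and WT. The means were 28.4 ± 1.80, 5.68 ± 1.09 and 11.5 ± 6.13 CPM (SD, n = 3), so that 20.0% of the WT mean was left in PBS and 40.5% in SN-011.

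Fbp2 has a far more abundant paralog next to it. Fbp1 lies 6331 bases from it on the same strand and averaged 944 CPM in WT, 957 in PBS and 903 in SN-011. Per kilobase of exon, the WT level was 555 CPM for Fbp1 and 19.3 CPM for Fbp2. The transcripts of the pair were 72.7% identical over 882 aligned bases, and no window of 100 bases in Fbp2 exons occurred in another gene. To show how far apart a read of the study's length would be, the most alike window of 150 bases without gaps is printed, with the 30 differing bases in capitals. It is coding sequence of exons 2, 3 and 4 in both genes, at chr13:62854904-62854913, chr13:62853974-62854066 and chr13:62849471-62849517 for Fbp2 and at chr13:62875149-62875158, chr13:62872690-62872782 and chr13:62871260-62871306 for Fbp1 (GRCm38, minus strand).
Fbp2: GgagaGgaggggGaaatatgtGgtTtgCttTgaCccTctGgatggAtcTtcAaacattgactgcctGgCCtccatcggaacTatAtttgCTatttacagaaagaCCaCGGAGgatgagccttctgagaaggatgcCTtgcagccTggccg
Fbp1: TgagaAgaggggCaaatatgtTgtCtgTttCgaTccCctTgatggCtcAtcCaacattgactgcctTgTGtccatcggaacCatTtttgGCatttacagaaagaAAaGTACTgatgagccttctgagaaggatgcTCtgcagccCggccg
The longest run of identical bases between the 2 transcripts was 23. Fbp1 changed by 0.02 (SE 0.13) on the log2 scale in PBS against WT and by -0.06 (SE 0.13) in SN-011 against WT, neither past the test (edgeR adjusted p = 0.963 and 0.840).

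Clic6 (ENSMUSG00000022949) lies at chr16:92485736-92541243 on the plus strand, with 3914 exonic bases, and had the fewest reads of the 4 genes. The WT libraries held 4.95, 10.5 and 6.60 CPM, from 105, 232 and 114 counts. The PBS libraries held 0.244, 0.701 and 1.18 CPM, from 4, 12 and 19 counts. The SN-011 libraries held 1.93, 0.522 and 4.21 CPM, from 34, 9 and 71 counts. WT stood above all Trex1-/- libraries, by a small margin over SN-011 replicate 3. SN-011 replicate 2 was within the PBS range. The means were 7.34 ± 2.84, 0.708 ± 0.469 and 2.22 ± 1.86 CPM (SD, n = 3), with 9.65% of the WT mean left in PBS and 30.3% in SN-011.

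Gm9973 (ENSMUSG00000113175) lies at chr13:4350397-4391265 on the minus strand, with 4257 exonic bases. Its WT libraries held 24.3, 25.1 and 8.79 CPM. The PBS libraries held 1.52, 1.40 and 3.98 CPM, and the SN-011 libraries held 1.25, 3.71 and 5.40 CPM. WT replicate 3 was far below the other two and nearer to the Trex1-/- libraries, although still above each of them. The PBS range lay within that of SN-011. The means were 19.4 ± 9.19, 2.30 ± 1.45 and 3.45 ± 2.09 CPM (SD, n = 3), with 11.9% and 17.8% of the WT mean left.

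The longest transcript of Gm9973, of 1908 bases, was the only one aligned, and it matched transcripts of other genes over short stretches. The best match was Akr1c19, with 81.2% identity over 101 bases. That stretch is printed because it is the one that ties the pseudogene to the Akr1c genes. It lies in the first exon of a non-coding transcript at chr13:4391138-4391238 (GRCm38, minus strand), and capitals mark the 19 bases at which Akr1c19 differs or has a gap.
Gm9973: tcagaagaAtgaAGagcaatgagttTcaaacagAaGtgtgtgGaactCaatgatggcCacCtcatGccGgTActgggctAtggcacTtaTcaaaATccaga
Of the 100-base windows in all transcripts of Gm9973, 50 of 4250 (1.18%) occurred in another gene, Gm48942. The share was 0 of 7118 for Ano3, 0 of 3813 for Clic6 and 0 of 1370 for Fbp2. Gm47951, a processed pseudogene on the opposite strand, lies within the span of Gm9973 and shares no exonic base with it. Its libraries held 70, 93 and 14 counts in WT, 0, 2 and 10 in PBS and 9, 8 and 16 in SN-011. WT replicate 3 was thus also the lowest WT library for Gm47951. Its log2 fold change in PBS against WT was -3.49 and did not pass the test (edgeR adjusted p = 0.0697). Whether the counting used the strand is not stated, so reads of the 2 pseudogenes may not be fully told apart. The nearest protein-coding genes, Akr1c12 and Akr1c6, averaged 4.08 and 0.157 CPM in WT. Akr1c12 did not pass the test in PBS against WT (log2 fold change -0.35, edgeR adjusted p = 0.742), and Akr1c6 had too few reads to be tested.

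**Figure D1:**
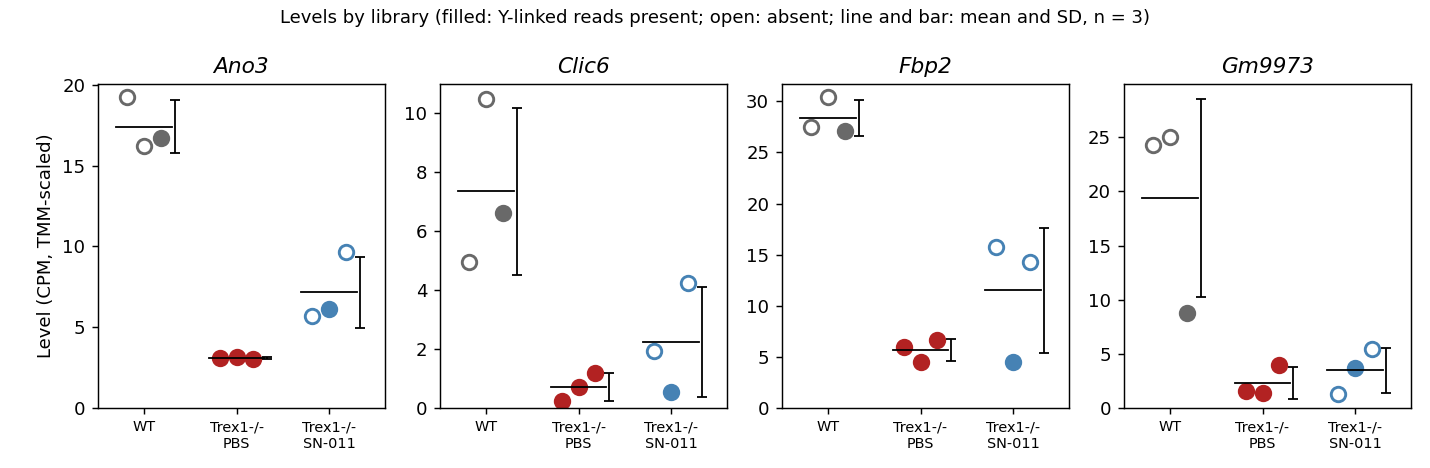
Level of each gene (CPM, TMM-scaled, linear axis from 0) in the 9 libraries by group, with the mean and SD of each group of 3. Filled points are libraries with Y-linked reads and open points those without. All 6 Trex1-/- libraries lie below the 3 WT libraries for each gene, and for Fbp2 and Clic6 SN-011 replicate 2, the filled blue point, lies at the level of the PBS libraries.

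Compared per kilobase of exon, the genes were of different abundance in WT. Fbp2 was the most abundant at 19.3 CPM per kilobase, followed by Gm9973 at 4.56, Ano3 at 2.41 and Clic6 at 1.88. Fbp2 stood apart from the others in every WT library, while the ranges of Gm9973, Ano3 and Clic6 overlapped.

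PBS against WT is the contrast that chose the genes, and its values are a description. The log2 fold changes were -3.37 (SE 0.675) for Clic6, -3.08 (SE 0.577) for Gm9973, -2.49 (SE 0.208) for Ano3 and -2.32 (SE 0.368) for Fbp2. These are levels 10.3, 8.47, 5.61 and 4.99 times lower. Across all genes, 0.439% were called lower in this comparison at an adjusted p under 0.05, and for 12.3% every PBS library was below every WT library, as the rule required of the 4. Fbp2 was the last gene inside the rule, and Nap1l5 lay just outside it at -2.16 (SE 0.460). The precision differed among the genes, with the smallest SE for Ano3 and the largest for Clic6, whose PBS libraries held the fewest counts.

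SN-011 against WT asks whether the genes were still low under the antagonist. The SN-011 levels were not used to rank the genes, but the WT levels were. The SN-011 libraries did enter the spread of the fit whose test the genes had to pass. This comparison is therefore not fully independent of the choice. All 4 genes were lower in SN-011, in 3 of 3 libraries each, and 1 of the 4 passed the test, where 0.457% of all genes were called lower. Ano3 fell by 1.28 log2 units with an SE of 0.193 (edgeR adjusted p = 0.0156). Gm9973 stood at -2.50 (SE 0.551, edgeR adjusted p = 0.0615), Clic6 at -1.73 (SE 0.589, edgeR adjusted p = 0.170) and Fbp2 at -1.30 (SE 0.347, edgeR adjusted p = 0.0952). No SN-011 library overlapped WT in any of the 4, a separation found for 9.99% of all genes. The call of Ano3 was lost without WT replicate 1 (edgeR adjusted p = 0.0723), without WT replicate 2 (0.0538) or with only the 6 libraries compared (0.0711).

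SN-011 against PBS asks what the antagonist changed in the knockout. The genes were chosen for low values in the PBS libraries, so estimates above 0 are partly built into this comparison and it is not independent of the choice. None of the 4 genes passed the test, nor did any of the 16646 genes (0%), although 1905 had an unadjusted p under 0.05 by edgeR's quasi-likelihood test and DESeq2 called 183. The estimates were all above 0. Ano3 stood at 1.20 (95% interval 0.74 to 1.67, edgeR adjusted p = 0.168), Clic6 at 1.64 (0.07 to 3.21, edgeR adjusted p = 0.419), Fbp2 at 1.02 (0.20 to 1.84, edgeR adjusted p = 0.343) and Gm9973 at 0.59 (-0.75 to 1.92, edgeR adjusted p = 0.751). Only for Ano3 was every SN-011 library above every PBS library, as it was for 7.74% of all genes. Ano3 was called in this comparison by DESeq2 (log2 fold change 1.21, adjusted p = 0.000253) and by edgeR's exact test (1.20, adjusted p = 0.000906). Without SN-011 replicate 2, Ano3 (1.30, edgeR adjusted p = 0.0181) and Fbp2 (1.40, edgeR adjusted p = 0.00416) both passed, as did 3.05% of all genes, 519 in number. With 3 libraries a group the intervals are wide, and that of Gm9973 spans 0.

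Within the SN-011 group, Fbp2 was lowest in replicate 2, the only one with Y-linked reads, which held 4.46 CPM against 15.8 and 14.2 CPM in the 2 replicates without them. In a fit with a mean for each combination of group and presence of Y-linked reads, Fbp2 stood at -1.75 log2 units (SE 0.236) in replicate 2 relative to the other two, past the threshold (edgeR adjusted p = 0.00164), as were 7.02% of all genes, but this sets 1 library, seen beforehand to stand apart, against 2. The WT libraries showed no such step, with 27.1 CPM with and 29.0 CPM without Y-linked reads. The difference between these steps was itself tested and stood at -1.65 (SE 0.300, edgeR adjusted p = 0.0481), a test passed by 0.499% of all genes. The contrast rests on 1 library with Y-linked reads in each of WT and SN-011, which were taken to vary like the others, so sex and library cannot be told apart. Slco1a1, an organic anion transporter known to be higher in male kidney, had 20.4 to 62.4 CPM in WT replicate 3 and the PBS libraries. It had 198 CPM in SN-011 replicate 2 and at most 0.283 CPM in the other 4. The 3 male-biased genes listed, Slco1a1 among them, summed to 7942 to 19186 CPM with Y-linked reads and 653 to 6811 CPM without. The 2 female-biased genes listed summed to 808 to 1019 CPM without such reads. With them they summed to 230 to 579 CPM in PBS and SN-011, but to 1192 CPM in WT replicate 3. The part of these genes in the level of Fbp2 was not tested. The contrast was chosen after seeing the data, and 6 of its 13 alternatives missed the threshold, with adjusted p from 1.13e-05 to 0.195.

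None of the other 3 genes passed the test for such a step. Clic6 had the same order, 0.522 CPM in SN-011 replicate 2 against a mean of 3.07 CPM in the other two, but its step of -2.54 (SE 0.852) did not pass (edgeR adjusted p = 0.108). Ano3 stood at -0.32 (SE 0.292, edgeR adjusted p = 0.573). Gm9973 stood at 0.17 (SE 0.688, edgeR adjusted p = 0.920). Its own gap lay in WT, where the library with Y-linked reads held 8.79 CPM against a mean of 24.7 CPM in those without, a step of -1.49 (SE 0.592) that did not pass either (edgeR adjusted p = 0.375).

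Within libraries of like Y-linked reads, the estimates of all 4 genes were below 0 against WT, which for PBS follows from the choice of the genes. Among those with Y-linked reads, PBS against WT gave -2.43 for Ano3, -3.21 for Clic6, -2.26 for Fbp2 and -1.94 for Gm9973. The corresponding SN-011 library against WT replicate 3 gave -1.44, -3.64, -2.60 and -1.24. Among those without, SN-011 against WT gave -1.21, -1.33, -0.95 and -2.90. SN-011 against PBS within libraries with Y-linked reads was the exception to a common direction, with 0.98 for Ano3 and 0.70 for Gm9973, but -0.43 for Clic6 and -0.35 for Fbp2.

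**Figure D2:**
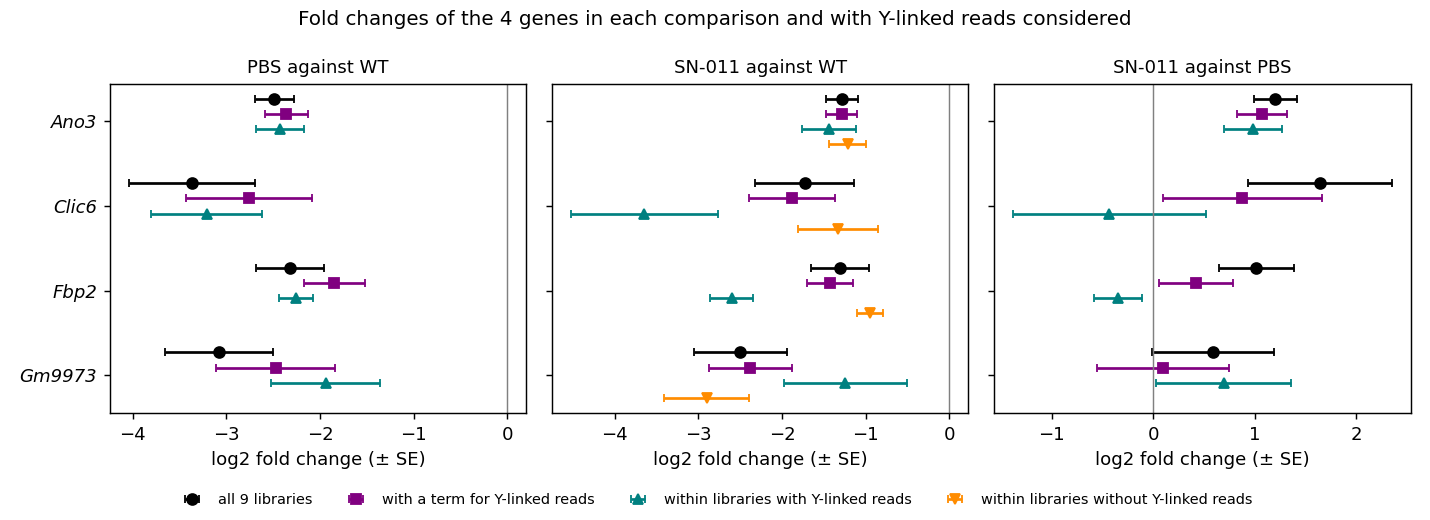
Log2 fold change (± SE) of each gene in the 3 comparisons, from all 9 libraries, with a term for Y-linked reads, and within libraries with or without such reads. All points in the first 2 panels lie below 0, which in the first follows from the choice of the genes, while in SN-011 against PBS Clic6 and Fbp2 move from 1.64 and 1.02 to -0.43 and -0.35 within libraries with Y-linked reads.

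Of the other anoctamins, 7 were tested and 0 passed in any comparison by edgeR's quasi-likelihood test. In PBS against WT, 2 of the 7 were lower at an unadjusted p under 0.05, as were 7.58% of all genes (8.13% in SN-011 against WT), and DESeq2, edgeR's exact test and limma-voom called 0. Ano4, the closest relative of Ano3 with 68.2% identity over 2497 bases, stood at -1.48 (SE 0.476, edgeR adjusted p = 0.170), from a WT mean of 1.52 CPM. Ano6, the lipid scramblase of platelets, was the most abundant per kilobase at 9.42 CPM in WT and stood at -0.05 (SE 0.106). In SN-011 against WT, Ano5, known from muscle disease, stood at -1.42 and missed the threshold (edgeR adjusted p = 0.0586), and DESeq2 and the exact test each called 1 of the 7, as they did in SN-011 against PBS, beside 5.22% and 3.59% of all genes in the first of these comparisons and 1.28% and 0.763% in the second. The median of the 7 was -0.16 in PBS and -0.30 in SN-011 against WT, beside 0.0028 and -0.0034 for all genes.

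The other 4 CLIC genes, Clic1, Clic3, Clic4 and Clic5, ranged from -0.26 to 0.30 in PBS against WT and from -0.47 to 0.16 in SN-011 against WT. None passed by edgeR, DESeq2 or limma-voom, and 0 had an unadjusted p under 0.05. Clic1 was the most abundant per kilobase in WT, at 49.5 CPM, and Clic6 the least at 1.88 CPM. Clic5, the closest relative of Clic6 with 71.5% identity over 691 bases, is known from podocytes and stood at -0.08 and 0.01. A list of 19 chloride channel and cotransporter genes, among them the CLCN channels and the SLC12 cotransporters, gave 0 calls by edgeR, DESeq2, the exact test or limma-voom in either comparison with WT, with 3 (PBS) and 2 (SN-011) lower at an unadjusted p under 0.05, as were 7.58% and 8.13% of all genes.

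The other genes of gluconeogenesis did not pass the test that Fbp2 passed in the contrast that chose it. Of 11 tested, 0 passed in any comparison by edgeR, DESeq2 or limma-voom, with 1 higher at an unadjusted p under 0.05 in PBS against WT, as were 7.63% of all genes. Pck1, which encodes the cytosolic carboxykinase that commits carbon to glucose, stood at 0.70 (SE 0.281, edgeR adjusted p = 0.275). The genes of glycolysis and fructose entry were mostly lower. Of 26 tested, 11 had an unadjusted p under 0.05 in PBS against WT and 15 in SN-011 against WT, all lower, where 7.58% and 8.13% of all genes were lower at that p. The medians were -0.25 and -0.36. None passed edgeR's quasi-likelihood test or limma-voom. DESeq2 called 5 and 9 of them, where it called 4.37% and 5.22% of all genes, and edgeR's exact test called 2 and 2, where it called 4.12% and 3.59%. Pfkl, the liver phosphofructokinase that opposes fructose-1,6-bisphosphatase, stood at -0.76 (edgeR adjusted p = 0.0856) in PBS and -0.92 (0.0547) in SN-011.

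The interferon-stimulated genes moved the opposite way. All 10 tested rose in PBS against WT and 9 of 10 rose in SN-011 against WT, where 1.44% and 0.823% of all genes were called higher. Their summed level was 123 to 174 CPM in WT, 732 to 1025 in PBS and 310 to 488 in SN-011, so the groups were in the reverse order of Ano3. Leukocyte markers summed to 23.0 to 31.9 CPM in WT, 49.3 to 62.2 in PBS and 24.5 to 47.9 in SN-011, where replicate 1 lay within the WT range. In PBS against WT, 1 of 8, the monocyte marker Ly6c2, rose (2.76, edgeR adjusted p = 0.00256), 7 of 8 were higher at an unadjusted p under 0.05, as were 7.63% of all genes, and DESeq2 and the exact test each called 3, beside 4.37% and 4.12% of all genes. Adipocyte markers summed to 160 to 396 CPM in WT, 105 to 203 in PBS and 114 to 163 in SN-011, and 0 of 6 passed edgeR's quasi-likelihood test against WT. At an unadjusted p under 0.05, 1 was lower in PBS and 2 in SN-011, as were 7.58% and 8.13% of all genes. The exact test called 1 in PBS, where it called 4.12% of all genes, and DESeq2 called 1 in SN-011, where it called 5.22%. Urothelial markers summed to 29.0 to 36.0, 19.9 to 30.1 and 20.3 to 32.1 CPM, and 0 of 8 passed edgeR's quasi-likelihood test against WT. At an unadjusted p under 0.05, 1 was lower in PBS and 1 was higher in SN-011, as were 9.88% of all genes, and the exact test called 1 in SN-011, where it called 3.59%. The part of these cell types in the levels of the 4 genes was not tested, and in whole kidney fewer cells of a type and less RNA per cell cannot be told apart.

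Among the markers of kidney segments, 1 of 10 for the proximal tubule passed in PBS against WT, where 0.439% of all genes were called lower. At an unadjusted p under 0.05, 4 of the 10 were lower, as were 7.58% of all genes. At that p 0 were higher, where 7.63% of all genes were. The log2 fold changes of the 10 ranged from -0.71 to 2.00, with a median of -0.15. Slc5a2, the sodium-glucose cotransporter SGLT2 of the early proximal tubule, fell by 0.71 log2 units in PBS against WT with an SE of 0.126 (edgeR adjusted p = 0.0163), with means of 392 CPM in WT, 239 in PBS and 277 in SN-011. For the loop and distal tubule, the collecting duct and the podocyte, 0 of 7, 0 of 8 and 0 of 5 passed in PBS against WT by edgeR, with 1, 0 and 0 at an unadjusted p under 0.05 and none by DESeq2, the exact test or limma-voom.

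The genes flanking the 4 showed no like fall past the test. Slc5a12, a sodium-coupled lactate transporter of the proximal tubule, lies 7422 bases from Ano3 and stood at -0.48 (edgeR adjusted p = 0.246) in PBS and -0.05 in SN-011 against WT. Muc15, on the opposite strand within Ano3, shares 61 of the 7218 exonic bases of Ano3 (0.845%) and averaged at most 0.0386 CPM. Rcan1, an inhibitor of calcineurin, and Runx1, a transcription factor, lie on either side of Clic6 and stood at 0.44 and 0.21 in PBS against WT, neither past the test (edgeR adjusted p = 0.178 and 0.687).

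Across the 9 libraries, the 3 genes most like each of the 4 were found by Pearson's r of log2 CPM over 14841 genes with a mean of at least 1 CPM. Both the groups and the Y-linked reads enter such an r, so the r within groups, after subtraction of group means, is given with it. For Ano3 they were Limch1, an actin-binding protein gene (r = 0.967, within groups 0.740), Slc5a2 (0.953, within groups 0.894) and Maf, a transcription factor (0.949, within groups 0.260). For Fbp2 they were Gm16010 (0.983, within groups 0.958), Mapk3, which encodes the kinase ERK1 (0.970, within groups 0.979), and Slc14a1, a urea transporter (0.968, within groups 0.873). For Clic6 they were Acrbp (0.958, within groups 0.905), Pla2g5, a secreted phospholipase (0.955, within groups 0.882), and Rcbtb2 (0.953, within groups 0.871). For Gm9973 they were Ldhb, a lactate dehydrogenase subunit (0.962, within groups 0.920), Aldh7a1, an aldehyde dehydrogenase (0.960, within groups 0.902), and Zswim3 (0.953, within groups 0.872). No gene was named for 2 of the 4. Among themselves, the 4 genes had r from 0.744 (Fbp2 and Gm9973) to 0.929 (Clic6 and Fbp2), and within groups from -0.08 (Fbp2 and Gm9973) to 0.72 (Clic6 and Fbp2).

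**Figure D3:**
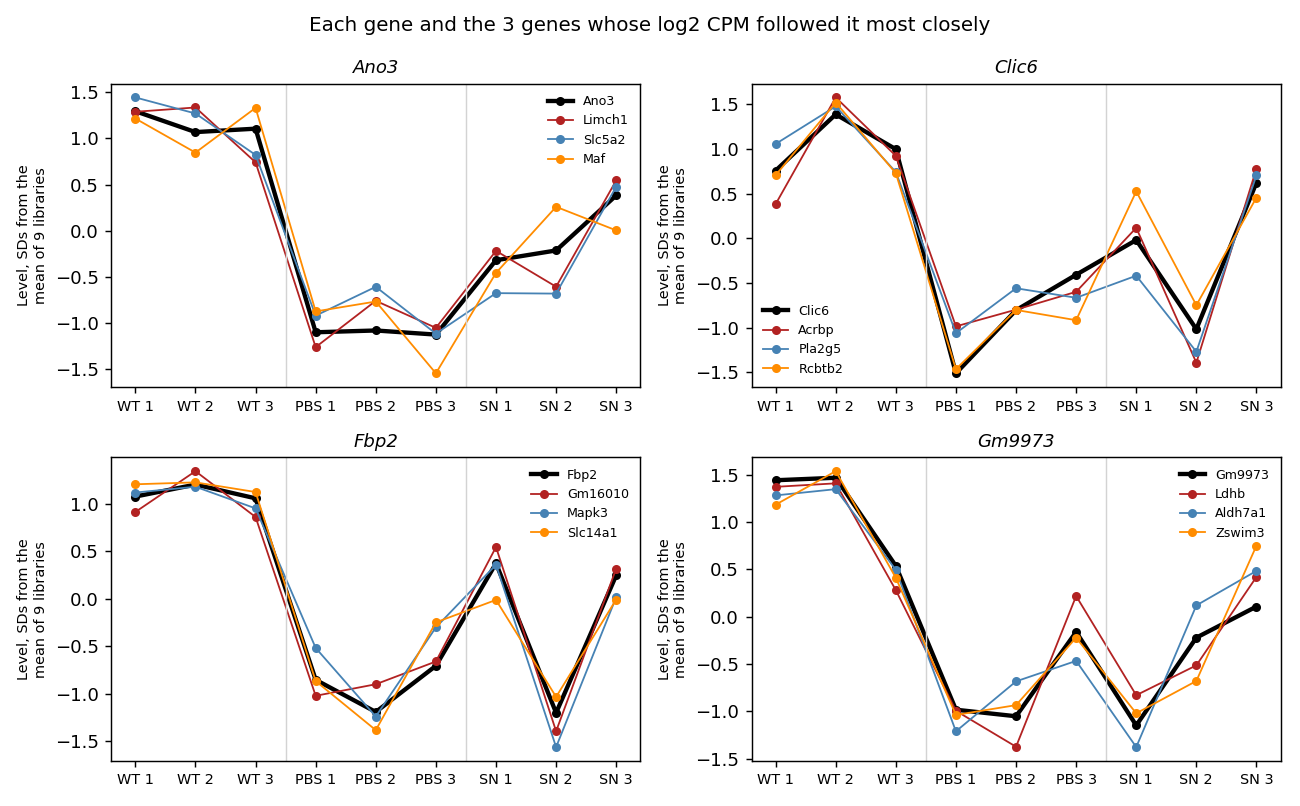
Level of each gene (thick black line) and of the 3 genes most like it in the 9 libraries, each as SDs of log2 CPM from its mean over the 9. The lines share the drop from WT to PBS that their r of 0.949 to 0.983 rests on in part, and for Fbp2 and its 3 genes also the dip at SN-011 replicate 2.

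Sequence just upstream was searched for Ano3 and Fbp2 (RefSeq, GRCm38.p6) and not for Clic6 or Gm9973. It is shown because the 2 genes searched had 1 motif in common. The 250 bases before each listed start were searched on both strands for 7 motifs, namely the E-box CACGTG, the TATA box TATAAA, the CAAT box with the letters CCAAT, the GC box with the letters GGGCGG, the interferon-stimulated response element, the GAS element of STAT factors TTCNNNGAA and the element shared by androgen and glucocorticoid receptors. The E-box was found at position -173 from the first start of Ano3 and at -42 from the start of Fbp2. Of 32851 such windows of all genes, 6.02% held it. The TATA box was found before the second start of Ano3, as in 12.4% of windows, and the other 5 motifs were not in these windows. The stretch of Ano3 at chr2:110950400-110950429 (minus strand) lies inside a first exon of another Ano3 transcript, so only 30 bases are given. That of Fbp2 is chr13:62858423-62858650 (minus strand), up to the annotated exon, and capitals mark the E-box in both.
Ano3: ttcttcctctccCACGTGcaccaaacccct
Fbp2: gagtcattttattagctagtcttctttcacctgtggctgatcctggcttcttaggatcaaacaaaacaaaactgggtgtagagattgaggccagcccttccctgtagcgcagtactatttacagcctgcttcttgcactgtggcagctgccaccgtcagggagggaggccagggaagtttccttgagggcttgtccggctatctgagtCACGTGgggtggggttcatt
A match of letters is a description of the window, and binding of any factor was not measured here.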

How the data were processed

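Kidney polyA+ RNA of 9 libraries was sequenced as paired reads. The authors trimmed reads with Trimmomatic, aligned them with HISAT2 (build mm10 per the submitters' processing notes) and counted uniquely mapped pairs with featureCounts, and the deposited values are raw counts per Ensembl gene. Versions, annotation and strand setting are not given in the sources used here. Reads shared by paralogs were thus left out by the authors.

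Symbols came from GENCODE vM21 (GRCm38, 54495 of 54532 identifiers matched). Counts were filtered by filterByExpr (10 reads, 15 in total) and tested in R 4.3.3 with edgeR 4.0.16, in 1 quasi-likelihood fit of all 9 libraries with TMM factors and a mean per group, two-sided, with Benjamini-Hochberg adjustment over 16646 genes. A gene was called at an adjusted p under 0.05. CPM are TMM-scaled, those of Y-linked genes and Xist unscaled, and log2 CPM used a prior count of 2. A library had Y-linked reads above 10 CPM. Intervals use the fit's degrees of freedom. DESeq2 1.42.0, edgeR's exact test and limma-voom 3.58.1 were alternatives. The steps were tested on simulated data. BLAST 2.17.0 compared nucleotide sequences of transcripts to find the closest relatives, in place of proteins.

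The 4 genes, the gene lists and the rule for named genes (list genes past the test or most abundant per kilobase, neighbours, relatives, and the 3 genes with the highest r) were chosen with earlier results of these data known. Genes named beyond it as examples, such as Pck1, Pfkl, Ano5 and Slco1a1, and markers of muscle, neuron and choroid plexus were chosen after their values were seen, as were fits within libraries of like Y-linked reads. Some genes that the rule would name are not reported here.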

Additional observations from a re-analysis of the deposited data

Results flagged for a closer look

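The change of Fbp2 in SN-011 against WT differed between libraries with and without Y-linked reads by -1.65 log2 units with an SE of 0.300 (edgeR adjusted p = 0.0481), from -2.60 with such reads to -0.95 without them. It was picked out because the difference between 2 groups of libraries was itself tested. There was 1 library with Y-linked reads on each side, WT replicate 3 and SN-011 replicate 2, so neither can be left out, and sex cannot be told apart from what else marks those libraries. Clic6 differed the same way by -2.31 without passing the test (edgeR adjusted p = 0.396), Ano3 by -0.23 (0.851), and Gm9973 by 1.66 in the other direction (0.487).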

How the results depend on the processing

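In PBS against WT, the contrast that chose the genes, a Y-linked term gave -2.36 for Ano3, -2.76 for Clic6, -1.85 for Fbp2 and -2.47 for Gm9973, and Gm9973 stood at -1.94 within libraries with Y-linked reads. Leaving out each library gave -2.54 to -2.41 for Ano3, -3.94 to -2.97 for Clic6, -2.45 to -2.18 for Fbp2 and -3.73 to -2.83 for Gm9973.

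In SN-011 against WT, Ano3 lost its call with only the 6 libraries compared (-1.28, adjusted p = 0.0711 by edgeR). Without a filter beyond 1 read, Clic6 (-1.75), Fbp2 (-1.32) and Gm9973 (-2.51) passed. Fbp2 and Gm9973 also passed by DESeq2 (-1.31 and -2.49), by edgeR's exact test (-1.30 and -2.49) and with a Y-linked term (-1.43 and -2.38). Within libraries without Y-linked reads, Fbp2 (-0.95) and Gm9973 (-2.90) passed. Within those with such reads Fbp2 stood at -2.60, which sets 1 library against 1 and cannot measure their spread. Leaving out each library gave -1.56 to -1.14 for Ano3, -2.57 to -1.27 for Clic6, -1.60 to -0.92 for Fbp2, called without SN-011 replicate 2 (-0.92, edgeR adjusted p = 0.0140), and -2.97 to -2.09 for Gm9973, called without WT replicate 3 (-2.85, 0.0242).

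In SN-011 against PBS, Clic6 (-0.43) and Fbp2 (-0.35) turned direction within libraries with Y-linked reads. Ano3 passed without a filter (1.19), by DESeq2 (1.21) and by the exact test (1.20). A Y-linked term gave 1.07 for Ano3, 0.88 for Clic6, 0.42 for Fbp2 and 0.10 for Gm9973. Leaving out each library gave 0.93 to 1.35 for Ano3, 0.80 to 2.21 for Clic6, 0.72 to 1.40 for Fbp2 and 0.12 to 1.24 for Gm9973. The difference of Fbp2 by Y-linked reads missed the threshold by limma-voom (-1.65, adjusted p = 0.0627) and ran from -1.73 to -1.57 when a library was left out.

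Counts of genes called were 313, 213 and 0 in the 3 comparisons. They became 707, 607 and 127 without a filter, 726, 816 and 183 by DESeq2, 686, 597 and 127 by the exact test, 751 and 43 with only the 6 libraries (first 2 comparisons) and 198 and 656 with a Y-linked term. Within libraries with Y-linked reads SN-011 gave 410 against WT and 82 against PBS, and without them 582 against WT. Leaving out each library gave 153 to 774, 38 to 376 and 0 to 519, the last 519 without SN-011 replicate 2. The causes were not tested.

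Replicate numbers did not pair the libraries, since the correlations of deviations between groups ran from 0.13 to 0.24 for replicate 1, from -0.29 to 0.24 for replicate 2 and from -0.14 to 0.10 for replicate 3. With the replicate block, calls of the 4 genes stayed as they were: Ano3 in SN-011 against WT was at -1.30 (edgeR adjusted p = 0.0248), and 312, 231 and 0 genes were called. Of the 3 genes most like each, Spearman's rho shared 1 for Ano3, 0 for Clic6, 1 for Fbp2 and 1 for Gm9973. With 3 libraries a group and 4 to 19 counts of Clic6 in PBS, differences of the size seen between SN-011 and PBS were within wide intervals.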

Other observations

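Ucp1, the uncoupling protein of brown fat, averaged 15.5 CPM in WT, 2.16 in PBS and 3.69 in SN-011 and did not pass the test in PBS against WT (log2 fold change -2.84, edgeR adjusted p = 0.125). It was named after its values were seen.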
